A study of Rattus norvegicus with 4 samples.

Results

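The genes described here fold, modify and inspect proteins in the endoplasmic reticulum (ER), or run the unfolded protein response, the signalling that adjusts folding capacity. The 42 members were chosen by gene name from the annotated open reading frames (ORFs) of a ribosome profiling experiment, out of 13694 genes with an annotated ORF. Each gene is represented by its annotated ORF with the most counts summed over 4 libraries. The cells were ventricular cardiomyocytes of Sprague-Dawley rats at postnatal day 2, isolated enzymatically, plated first to remove other cells and cultured with serum. They were exposed to phenylephrine (PE), an α1-adrenergic agonist, at 20 µM for 24 h (2 libraries) or labelled untreated (2 libraries). The treatment text of the labels names PE for all 4 libraries, so the groups rest on the titles and the treatment label of each sample, and no vehicle is named.

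Proteins that enter the secretory pathway pass through the Sec61 channel into the ER, where chaperones of the Hsp70 and Hsp90 families, lectins and disulfide isomerases fold them. Molecules that fail are moved back to the cytosol and degraded. When unfolded protein accumulates, the sensors IRE1 (Ern1), PERK (Eif2ak3) and ATF6 (Atf6) are activated. IRE1 cuts a short intron out of Xbp1 mRNA, PERK phosphorylates an initiation factor, and ATF6 is cleaved to a transcription factor. In cardiomyocytes the ER also feeds the sarcoplasmic reticulum with membrane and ion-handling proteins.

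XBP1 and ATF6 are known to act on promoters through the ER stress response element (ERSE), which joins CCAAT and CCACG across 9 bases, and through ERSE-II, which joins ATTGG and CCACG across 1 base. RefSeq promoter windows on the GRCr8 build, from 250 bases before to 50 bases after the start of a gene, were found for 33 of the 42 members. ERSE matched on either strand in 9 of these 33 windows (27.3%) and in 0 of 84 windows of other ER genes. It matched in 22 of all 33469 windows (0.0657%) and in 15 of the 8758 windows of tested genes (0.171%), sets that include the members. ERSE-II matched in 3 of the 33 windows (9.09%) and in 0 of the 84. It matched in 17 of all windows (0.0508%) and in 8 of those of tested genes (0.091%). The element TGACGTGG, known to bind XBP1 and ATF6, matched in 2 of the 33 (6.06%). It matched in 199 of all windows (0.595%) and in 80 of those of tested genes (0.91%). Of the 84 windows of other ER genes it matched in 5 (5.95%), a share near that of the members. The shared part CCACG alone was in 26 of the 33 (78.8%), in 31.6% of all windows, in 47.2% of the 8758 windows of tested genes and in 57.1% of those of other ER genes. ERSE was originally described on promoters of this gene family, so its share among the members is not independent of the motif's origin, and a match is no evidence of binding here.

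The stretches below hold some of the matches of members that passed the test for a PE effect, and that of Xbp1, with 10 bases on either side. They are not the full set, so the directions of change among them do not stand for all members with a match, whose counts follow the sequences. They are written 5′ to 3′ on the strand of the gene, with the match in capitals. The first 5 lines hold ERSE and the last 4 hold ERSE-II.

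Hspa5 (chr3:38452963-38453001, plus strand): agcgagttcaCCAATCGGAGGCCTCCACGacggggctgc

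Calr (chr19:40213125-40213163, plus strand): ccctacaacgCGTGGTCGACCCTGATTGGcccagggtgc

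Hsp90b1, upstream site (chr7:23012441-23012479, minus strand): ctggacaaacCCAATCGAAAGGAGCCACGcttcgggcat

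Hsp90b1, downstream site (chr7:23012337-23012375, minus strand): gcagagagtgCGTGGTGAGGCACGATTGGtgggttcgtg

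Xbp1 (chr14:84604548-84604586, plus strand): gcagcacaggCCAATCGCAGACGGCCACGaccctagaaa

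Herpud1 (chr19:10614811-10614841, minus strand): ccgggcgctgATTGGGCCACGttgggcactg

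Hyou1, upstream site (chr8:53602684-53602714, plus strand): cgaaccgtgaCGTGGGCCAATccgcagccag

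Hyou1, downstream site (chr8:53602784-53602814, plus strand): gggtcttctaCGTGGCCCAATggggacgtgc

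Dnajb11 (chr11:91672790-91672820, minus strand): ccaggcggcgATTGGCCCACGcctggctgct

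The matches of Calr, the downstream site of Hsp90b1 and both sites of Hyou1 read in the reverse direction. The upstream site of Hyou1 overlaps a match to TGACGTGG. The windows with ERSE also included those of Creld2, Derl3, Dnajc3 and Ero1b, which did not pass or were not tested. Of the 12 members with ERSE or ERSE-II, 11 were tested, and 5 were lower after PE, 2 higher and 4 did not pass. Of the 21 tested members with a window and neither element, 5 were lower, 4 higher and 12 did not pass, and of all tested genes 22.8% were lower and 22.3% higher. The difference between members with and without the elements was not tested.

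Ribosome profiling counts RNA fragments protected by ribosomes, so a value reflects the amount of an mRNA and its translation together. Library totals over all listed ORFs ran from 11446574 to 13827599 counts. Spread between replicates exceeded counting noise (chi-square over degrees of freedom 1.62 for the control pair and 1.6 for the PE pair). The labels do not say whether replicates were separate cultures, and p-values therefore cover only library-to-library spread, which may be technical. Of 10 cardiomyocyte markers, 8 had an annotated ORF, with a summed level of 58340 to 60613 CPM (footprint counts scaled to library size adjusted by TMM factors) over the 4 libraries. Fibroblast markers were also abundant. Their 9 genes summed to 34412 and 34680 CPM in control and 20823 and 21062 CPM after PE, with 5 lower and 1 higher of 8 tested. Postn, Col3a1, Col1a1, Pdgfra and Tcf21 were lower and Dcn higher. Col1a2 was not tested, with 158850 P-sites but 2 counts, and Thy1 was the lowest of the others, at 8.12 to 12.8 CPM. In bulk libraries, fewer cells of a type and less RNA per cell cannot be told apart.

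PE moved the members both ways and by small amounts. Of 41 tested members 13 were lower (31.7%) and 8 higher (19.5%), at a threshold of 0.05 in the quasi-likelihood test of edgeR, with p-values adjusted by Benjamini-Hochberg over all 12609 tested ORFs. Over 11286 tested genes, each with 1 annotated ORF chosen in the same way, 22.8% were lower and 22.3% higher. The share of members that were higher was therefore near the background, and the share that were lower was above it, with no test of that difference. The excess of lower over higher calls among the members depended on the processing. When a trend of fold change with ORF length was removed, 11 members were higher and 10 lower of 41. Of all 12609 ORFs, 2874 were then higher and 2294 lower, against 2696 and 2690 before, so the background moved in the same direction. Changes were modest: the median absolute log2 fold change was 0.12 among the members and 0.25 among all genes, 2 members exceeded 0.5 and 0 exceeded 1. Members and all genes were not matched for counts, and a median absolute change also grows with counting noise. Groups did not overlap in 15 members with PE below control and 11 with PE above, where 35.8% and 34.5% of all genes did so. The median log2 fold change was 0.0046 among members and -0.0084 among all genes. The members' summed level was 18215 CPM in each control library and 16857 and 16862 CPM after PE. A few abundant members weigh most in this sum. From control to PE, the mean CPM went from 3378 to 2588 for Hspa5, from 2467 to 2108 for Calr and from 2204 to 2119 for Pdia3. For P4hb it rose from 2345 to 2642.

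Many calls were of abundant ORFs whose small changes could be resolved, with standard errors from 0.014 upward. Tested against a 1.2-fold change, 4 members were lower (Hspa5, Hyou1, Sdf2l1 and Herpud1) and 1 was higher (Ero1a). In that test 12.0% of all genes were lower and 10.7% higher, so neither share of the members was above the background. These 5 genes act in different steps, 3 in the Hsp70 system, 1 in degradation and 1 in disulfide formation.

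**Figure D1:**
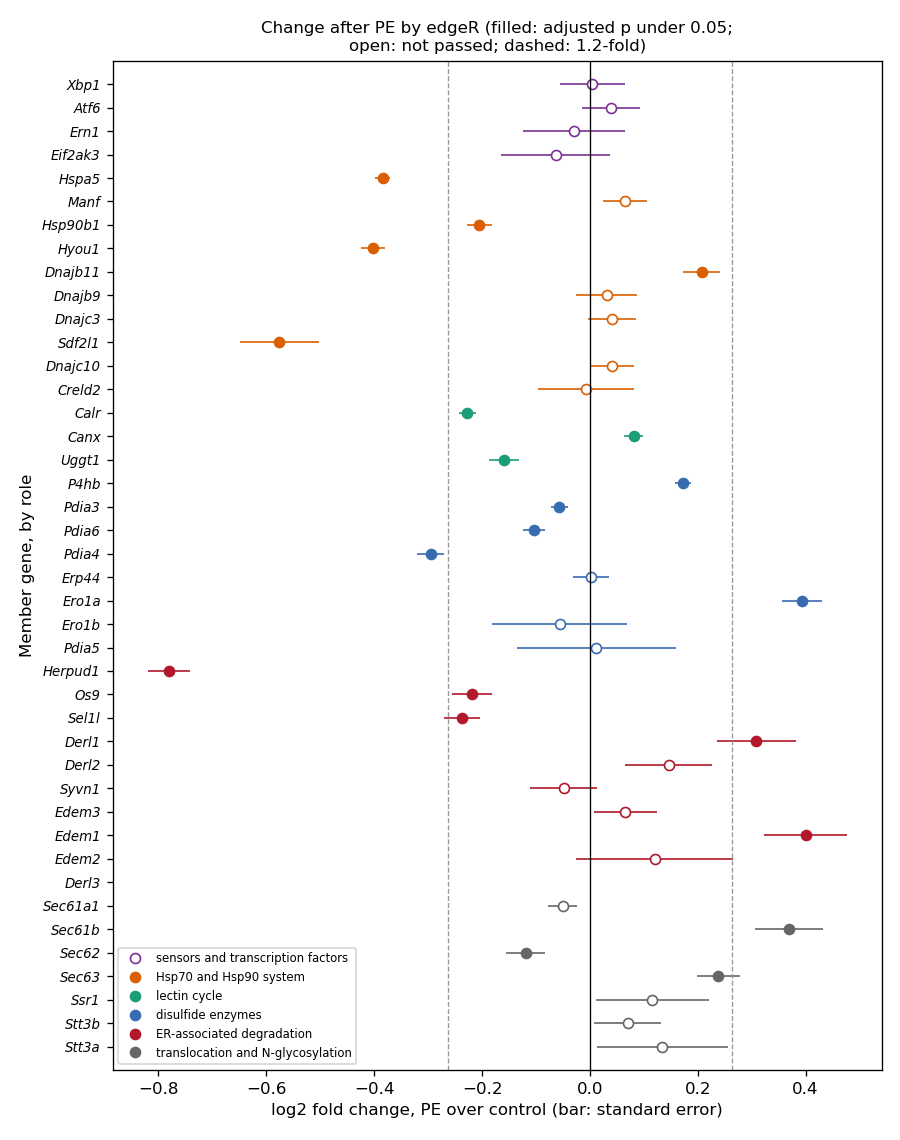
log2 fold change of PE over control (x axis) for each tested member (y axis, grouped by role and ordered by footprint density), with standard errors as bars. Filled points passed an adjusted p of 0.05 by edgeR, open points did not, and dashed lines mark 1.2-fold. Herpud1, Sdf2l1, Hyou1 and Hspa5 lie farthest to the left and Edem1, Ero1a and Sec61b farthest to the right, while the 4 sensors and transcription factors lie near 0.

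The sensors and their transcription factor did not pass the test. Ern1, the kinase and nuclease IRE1, had 29.1 and 30.9 CPM in control and 27.3 and 31.5 CPM after PE. Eif2ak3, the kinase PERK, had 24.96 and 24.87 CPM in control and 24.7 and 23.0 CPM after PE. Atf6 (chromosome 13, 89058643 to 89242390 on Rnor_6.0) had 121 and 108 CPM in control and 122 and 112 CPM after PE. PE and control overlapped for Ern1 and Atf6, while the PE values of Eif2ak3 lay just below control. Xbp1, which encodes the transcription factor made after IRE1 splicing, had 67.4 and 69.6 CPM in control and 68.7 and 68.8 CPM after PE. Its log2 fold change was 0.0046 ± 0.06 (SE), and the groups overlapped. The counts of Xbp1 were not split by reading frame. Its footprints fell in different frames and may have entered the counts only in part, as given below. Its value therefore does not stand for the product of the spliced mRNA alone. The log2 fold changes of the other 3 ran from -0.06 to 0.04, with standard errors of 0.05 to 0.10, and 0 of these 4 genes passed by edgeR, also at an unadjusted p under 0.05, or by DESeq2. Ribosome occupancy does not show whether the sensors were activated, which depends on phosphorylation, cleavage and splicing.

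The reading frame of Xbp1 footprints stood apart from that of the other members. P-sites mark where the peptidyl site of a ribosome lay on the mRNA. They were deposited per frame as sums over all libraries, so treated and untreated cells cannot be compared. The annotated ORF of Xbp1 (chromosome 14, 85753760 to 85758145) has 371 codons. Of its 3649 P-sites, 1477 were in frame 0, the frame of that ORF (40.5%, exact Clopper-Pearson 95% interval 38.9 to 42.1%), and 1917 were in frame 1 (52.5%, interval 50.9 to 54.2%). Intervals cover counting error only. In the other 41 members, frame 0 held from 76.5% (Edem1) to 87.5% (Syvn1). Among 7139 annotated ORFs with at least 1000 P-sites the median share in frame 0 was 84.4%. Xbp1 had the third lowest share, at rank 3, and was the 1 ORF with more than 50% in frame 1.

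As background, the intron that IRE1 removes shifts the reading frame, so that unspliced and spliced Xbp1 mRNA are translated in different frames after it, and ribosomes are known to pause near the end of the unspliced product. The annotation also lists an internal ORF of 13 codons in Xbp1, from position 737 to 778 of the transcript, which lies in frame 1 of the annotated ORF. It held 803 P-sites, or 61.8 per codon, against 9.84 per codon over the annotated ORF. Its own frame held 665 of them, equal to 34.7% of the frame 1 P-sites of the annotated ORF. The internal ORF had 0 counts in all 4 libraries and could not be tested. The annotated ORF had 0.94 counts per P-site, where the median tested ORF had 1.17. Whether footprints of the internal ORF entered the counts of the annotated ORF was not tested. Which mRNA form the frame 1 P-sites came from was not tested.

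**Figure D2:**
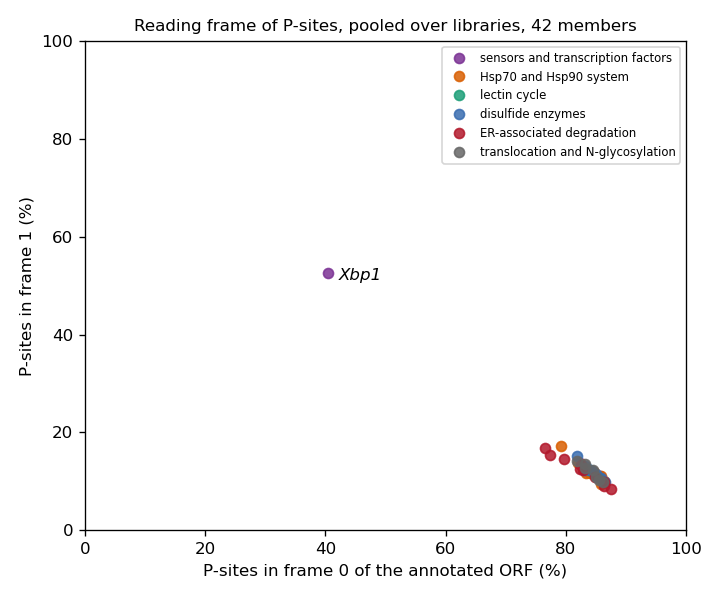
Share of P-sites in frame 0 (x axis, %) against frame 1 (y axis, %) of the annotated ORF, pooled over the 4 libraries, with 1 point for each of the 42 members coloured by role. Xbp1 is at 40.5% and 52.5%, and the others lie together at 76.5% to 87.5% in frame 0.

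The Hsp70 and Hsp90 system had the largest drop in summed level of the 6 roles. Of its 10 members 4 were lower, 1 was higher and 5 did not pass, with a median log2 fold change of 0.012. The summed level of the role was 5455 and 5452 CPM in control and 4441 and 4450 CPM after PE. Most of that drop lay in Hspa5, whose mean went from 3378 to 2588 CPM. Hspa5, the Hsp70 chaperone BiP (chromosome 3, 13838567 to 13842346), had 3398 and 3358 CPM in control and 2586 and 2591 CPM after PE. Both PE libraries were below both control libraries. Its log2 fold change was -0.38 ± 0.01 (SE), with edgeR adjusted p = 6.3e-21. Hyou1, the exchange factor that recharges BiP (chromosome 8, 48700771 to 48710640), had 700.4 and 711 CPM in control and 530 and 538 CPM after PE. These groups were also apart, with a log2 fold change of -0.40 ± 0.02. Sdf2l1, a partner of the BiP co-chaperones (chromosome 11, 88122325 to 88124166), had 53.9 and 58.6 CPM in control and 37.4 and 38.2 CPM after PE. It had the largest change of this role group, a log2 fold change of -0.58 ± 0.07 (edgeR adjusted p = 7.9e-08).

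Hsp90b1, the Hsp90 chaperone GRP94 (chromosome 7, 27226834 to 27240409), had 560 and 576 CPM in control and 494 and 493 CPM after PE. The groups did not overlap, with a log2 fold change of -0.20 ± 0.02. Only part of its footprints entered that value: it had 26574 counts for 112898 P-sites, or 0.235 counts per P-site, where the median tested ORF had 1.17. A second annotated ORF of Hsp90b1, which starts at the same genomic position, had 90305 P-sites and 0 counts. On the authors' RPKM scale of frame 0 P-sites, which is per length, Hsp90b1 stood at 541 and Hspa5 at 749, whereas by counts Hsp90b1 had a mean of 220.0 CPM per kb and Hspa5 1520. Its level by counts is therefore not comparable with that of the other chaperones.

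Of the remaining members of the Hsp70 system, 1 was higher and 5 did not pass. Dnajb11 (ERdj3), which presents unfolded protein to BiP, had 194 and 197 CPM in control and 227 and 224 CPM after PE, a log2 fold change of 0.21 ± 0.03. Its PE libraries were both above control. Manf, a secreted BiP-binding protein, had 145 and 147 CPM in control and 152 and 154 CPM after PE, and with a log2 fold change of 0.06 ± 0.04 it did not pass. Dnajb9 (ERdj4), Dnajc3 (p58IPK), Dnajc10 (the reductase ERdj5) and Creld2 had log2 fold changes of 0.03, 0.04, 0.04 and -0.0069 and did not pass. A second annotated ORF of Dnajb9 had 804 P-sites and 0 counts, and the ORF used here had 0.939 counts per P-site. The 2 partners Sdf2l1 and Dnajb11, which are known to bind each other, thus changed in opposite directions.

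The lectin cycle retains glycoproteins in the ER while they fold, and of its 3 members 2 were lower and 1 higher. Calr, the soluble lectin calreticulin (chromosome 19, 25957322 to 25961603), had 2435 and 2499 CPM in control and 2103 and 2112 CPM after PE. Canx, its membrane-bound counterpart calnexin (chromosome 10, 35804049 to 35819771), had 1248 and 1237 CPM in control and 1304 and 1325 CPM after PE. The groups were apart for both genes, with PE below for Calr and above for Canx. Their log2 fold changes were -0.23 ± 0.02 and 0.08 ± 0.02, with edgeR adjusted p = 8.7e-14 and 3.1e-04. Canx lost its call with library totals alone (0.04, edgeR adjusted p = 0.064). Uggt1, which re-glucosylates unfolded glycoproteins so that the lectins bind them again, had 415 and 421 CPM in control and 382 and 367 CPM after PE. Its log2 fold change of -0.16 ± 0.03 passed but turned to 0.041 (edgeR adjusted p = 0.24) when a trend of fold change with ORF length was removed.

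Disulfide enzymes form and rearrange bonds between cysteines. Of 8 members 3 were lower and 2 higher, and their summed level was 6496 and 6465 CPM in control and 6567 and 6583 CPM after PE. P4hb, protein disulfide isomerase and also a subunit of the collagen prolyl hydroxylase (chromosome 10, 109737351 to 109747921), had 2369 and 2320 CPM in control and 2626 and 2658 CPM after PE. Its PE libraries were both above control, with a log2 fold change of 0.17 ± 0.02. Pdia3 (ERp57), which works with the lectins, had 2210 and 2198 CPM in control and 2124 and 2114 CPM after PE. Its log2 fold change of -0.06 ± 0.02 passed, and no longer did with the length trend removed (-0.01, edgeR adjusted p = 0.53). Pdia4 (ERp72) had 562 and 565 CPM in control and 467 and 452 CPM after PE. At -0.30 ± 0.02 it had the largest decrease among the isomerases, and the groups were apart.

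Ero1a, the oxidase that reoxidises protein disulfide isomerase (chromosome 15, 19620898 to 19655368), had 161 and 161 CPM in control and 210 and 213 CPM after PE. Both PE libraries were above both control libraries, and the log2 fold change was 0.39 ± 0.04 (edgeR adjusted p = 1.3e-10). The related oxidase Ero1b was less densely occupied, with a mean of 13.0 CPM per kb against 134 for Ero1a. Ero1b had 17.0 and 20.0 CPM in control and 20.0 and 15.8 CPM after PE, and its groups overlapped. Its log2 fold change was -0.06 ± 0.12, and the difference between the oxidases was not tested. Pdia6 fell by 0.10 on the log2 scale, and Pdia5 (0.01) and Erp44 (0.0019), which holds the oxidases in the ER, did not pass.

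**Figure D3:**
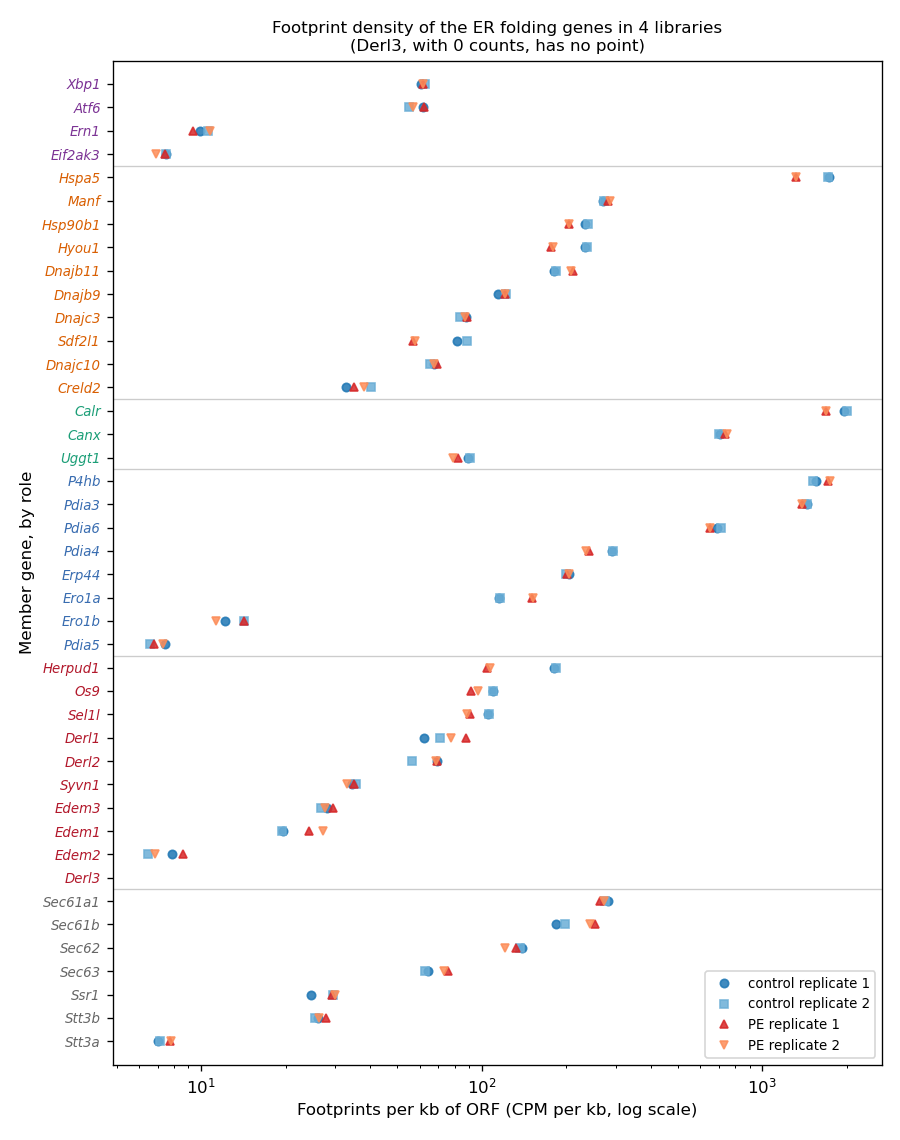
Footprints per kb of ORF (x axis, CPM per kb, log scale) in each of the 4 libraries for the members (y axis, grouped by role). Circles and squares are control replicates 1 and 2, upward and downward triangles are PE replicates 1 and 2. Calr, P4hb, Hspa5 and Pdia3 are the most densely occupied, at a mean of 1413 to 1833 CPM per kb, and the PE points lie visibly left of control for Herpud1, Sdf2l1, Hyou1 and Hspa5.

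Levels spanned a wide range per length of ORF. Calr had a mean over 4 libraries of 1833 CPM per kb, P4hb 1633, Hspa5 1520 and Pdia3 1413. Canx followed at 721 and Pdia6 at 674 CPM per kb. At the low end among members with at least 0.5 counts per P-site were Pdia5 at 7.02, Eif2ak3 at 7.33, Edem2 at 7.44 and Ern1 at 10.1 CPM per kb. In both control libraries the order was Calr, Hspa5, P4hb, Pdia3 and in both PE libraries it was P4hb, Calr, Pdia3, Hspa5. Pdia5 and Edem2 overlapped across libraries and do not differ beyond their spread.

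Members of ER-associated degradation recognise failed proteins and export them. Of 9 tested members 3 were lower and 2 higher. Herpud1, a membrane protein that assembles the degradation complex (chromosome 19, 11047484 to 11057163), had 212 and 215 CPM in control and 123 and 126 CPM after PE. This was the largest change of all members, a log2 fold change of -0.78 ± 0.04 (edgeR adjusted p = 2.3e-17), and the groups were far apart relative to their spread. Os9, a lectin that delivers glycoproteins to the complex, had 219 and 219 CPM in control and 182 and 194 CPM after PE, a log2 fold change of -0.22 ± 0.04. Sel1l, the scaffold of the complex, was lower by a similar amount, with a log2 fold change of -0.24 ± 0.03. Its partner Syvn1, the ubiquitin ligase HRD1, had -0.05 ± 0.06 and did not pass.

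Edem1, a mannosidase-like protein that marks glycoproteins for degradation (chromosome 4, 140886732 to 140914988), had 38.1 and 37.9 CPM in control and 47.3 and 53.0 CPM after PE. PE lay above control in both libraries, with a log2 fold change of 0.40 ± 0.08. Its relatives Edem2 and Edem3 had 0.12 and 0.07 and did not pass, and the differences between the 3 were not tested. Derl1, a subunit of the export channel, had 46.7 and 53.2 CPM in control and 66.1 and 58.3 CPM after PE, a log2 fold change of 0.31 ± 0.07, with PE above control in both libraries. Derl2 had 49.8 and 40.3 CPM in control and 49.8 and 49.4 CPM after PE, and its value of 0.15 ± 0.08 did not pass. It passed without control replicate 1 (0.29, edgeR adjusted p = 0.0073) and was -0.01 without control replicate 2. Derl3 was listed with 69 P-sites and 0 counts in every library and could not be tested.

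Translocation and N-glycosylation genes bring new chains into the ER and attach glycans to them. Of 7 members 2 were higher, Sec61b and Sec63, and 1 was lower, Sec62. Sec61a1, the channel itself, had 403 and 391 CPM in control and 378 and 388 CPM after PE, and its log2 fold change of -0.05 ± 0.03 did not pass, although it did with library totals alone (-0.09, edgeR adjusted p = 0.0043). Sec61b, a small subunit of the channel (chromosome 5, 63192424 to 63200363), had 53.1 and 57.2 CPM in control and 72.8 and 70.1 CPM after PE. Its PE libraries lay above both controls, with a log2 fold change of 0.37 ± 0.06. Sec63, which brings BiP to the channel, had 146 and 143 CPM in control and 173 and 168 CPM after PE, a log2 fold change of 0.24 ± 0.04. Its partner Sec62 had 252 and 247 CPM in control and 241 and 219 CPM after PE, a log2 fold change of -0.12 ± 0.04. The call of Sec62 was lost without PE replicate 2 (-0.05, edgeR adjusted p = 0.35), with DESeq2 (adjusted p = 0.097) and with the length trend removed.

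The glycosylation enzymes could be read only in part. Stt3a and Stt3b, the catalytic subunits of the oligosaccharyltransferase, had 0.0291 and 0.317 counts per P-site, and the translocon-associated Ssr1 had 0.105. All 3 did not pass, with log2 fold changes of 0.13, 0.07 and 0.12. Each has more than 1 annotated ORF. A further annotated ORF listed under Stt3a has 476 codons (chromosome 8, 39182025 to 39200837). It shares no genomic position with the Stt3a ORF used here (39207880 to 39241233). This further ORF had 166 and 174 counts in control and 139 and 115 in PE (log2 fold change -0.34 ± 0.15). It did not pass either. With 476 codons against 705 and no shared position, these ORFs do not encode the same chain. What the further ORF encodes was not tested.

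Among 20 further ORFs listed in member genes, 6 were tested and 0 passed by edgeR or by DESeq2. They were an upstream ORF each of Dnajc10, Edem2, Ssr1 and Stt3b, an ORF downstream of Pdia3, and the annotated ORF of 476 codons listed under Stt3a. At an unadjusted p under 0.05 in edgeR there was 1, the ORF of 476 codons. The upstream ORF of Dnajc10 had 31 and 32 counts in control and 35 and 22 in PE, and that of Ssr1 had 12 and 9 in control and 11 and 24 in PE. At these counts only large changes could be detected.

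Genes of the same compartment outside the members had more calls upward than downward, by a margin that depended on the scaling. Of 109 such genes 99 had an annotated ORF and 96 were tested, of which 30 were higher (31.2%) and 16 lower (16.7%), against 22.3% and 22.8% of all genes. With library totals alone 24 were higher and 22 lower, and DESeq2 called 21 higher and 8 lower. Their median log2 fold change was 0.05. Among other unfolded protein response genes, 6 of 17 were higher and 3 lower, and they included Wfs1, an ER membrane protein, at 0.67 ± 0.06, and the ER-bound transcription factors Creb3 at 0.31 and Creb3l2 at 0.28. The translocon and oligosaccharyltransferase list had 8 of 24 higher and 2 lower, with Serp1, a Sec61-associated protein, at 0.64 ± 0.08, the signal recognition particle receptor Srpra at 0.25 and the signal peptidase subunit Sec11c at -0.55 ± 0.06.

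KDEL receptors and cargo receptors, which return escaped chaperones to the ER or load cargo for export, had 6 of 10 higher and 2 lower, with Rer1 at 0.33, Surf4 at 0.33 with 0.25 counts per P-site, and Tmed2 at 0.20. Other chaperones and folding enzymes were split, 5 higher and 6 lower of 24, with Tmx4 at 0.29, the collagen chaperone Serpinh1 at -0.14 and Fkbp9 at -0.26. Other glycan trimming and degradation genes had 5 of 21 higher and 3 lower, with Nploc4 at 0.40, Ubxn4 at 0.25 and the glucosidase Ganab at -0.19.

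**Figure D4:**
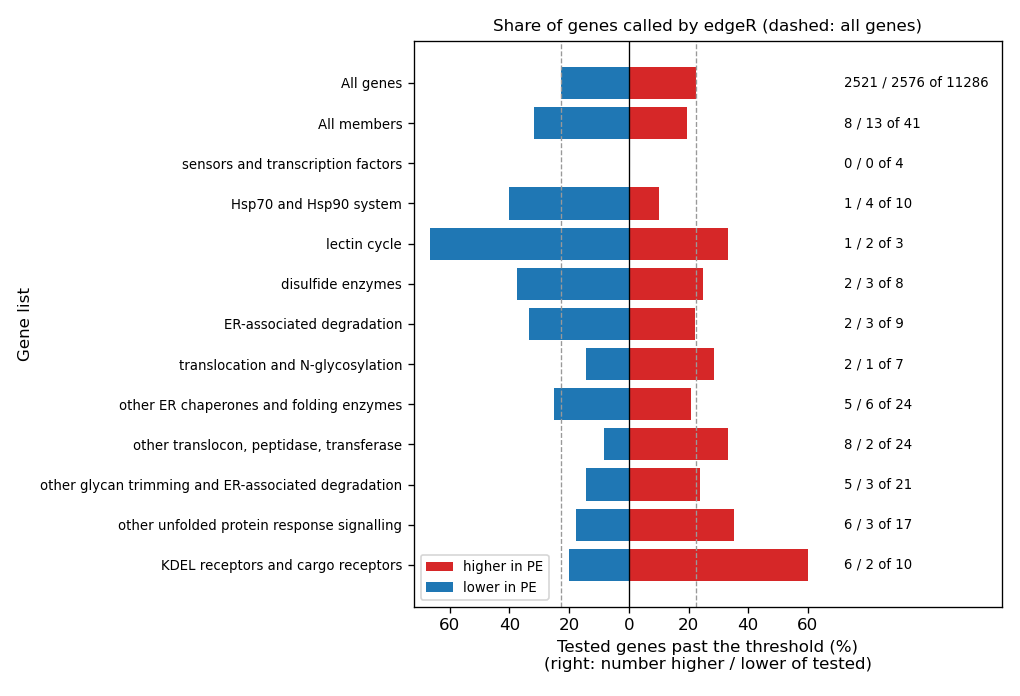
Share of tested genes past an adjusted p of 0.05 in edgeR (x axis, %), lower in PE to the left and higher to the right, for all genes, the members, their roles and other ER lists (y axis). Dashed lines mark all genes, at 22.8% lower and 22.3% higher. The members as a whole reach 31.7% lower, and KDEL receptors and cargo receptors reach 60% higher, on 10 genes.

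Markers of other cells moved as well. Endothelial markers summed to 223 to 232 CPM in control and 134 to 139 CPM after PE, with 4 of 7 lower and 1 higher, and macrophage markers to 502 to 524 CPM in control and 351 to 355 CPM after PE, with 6 of 9 lower. Smooth muscle and pericyte markers summed to 2555 to 2595 CPM in control and 2657 to 2695 CPM after PE, with 6 of 8 lower and 2 higher. Cardiomyocyte markers had 3 of 8 higher and 5 lower. The part of these shifts, and of the fibroblast shift given above, in the members' changes was not tested.

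In the authors' deposited table of their own DESeq2 comparison, 12 members were lower and 8 higher. Its call was the one reported here for 40 of the 41 tested members, and the exception was Sec62 (log2 fold change -0.12, adjusted p = 0.10 in the authors' deposited table).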

How the data were processed

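The authors deposited raw footprint counts per ORF for 4 ribosome profiling libraries, and an ORF annotation. Per the file headers, the annotation holds P-sites per frame pooled over libraries, frame 0 P-sites as RPKM, and the authors' DESeq2 log2 fold changes and p-values. Cutadapt 2.0, Bowtie 1.1.2, STAR 2.4.2a and Rnor_6.0 come from the submitters' processing notes. The sources used here do not name the ORF caller or the read counter. Coordinates of ORFs are on Rnor_6.0 and include introns.

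Counts were filtered (filterByExpr), scaled by TMM (factors 0.982 to 1.02) and tested with edgeR 4.0.16 in R 4.3.3 (robust quasi-likelihood, PE against control, no replicate term), with adjustment over 12609 ORFs. The script was tested on simulated data. Standard errors are the log2 fold change over the square root of F. Alternatives used DESeq2 1.42.0 and the settings of the closing section. Totals run from 11446574 to 13827599 counts, which limits precision for ORFs of few counts.

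Members and lists were chosen with earlier results of these data known. Of the members, 5 had under 0.5 counts per P-site. Values in every library are given for the 2 densest and the 3 most changed called members of each role, for all sensors and for Hsp90b1. Dnajb11, Ero1b and Derl2 were added after their values were seen. Up to 3 genes of smallest p are named in each other list. Of list genes, 1 was matched by an older symbol. Protein sequences were not used here. A further promoter match is not reported here.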

Additional observations from a re-analysis of the deposited data

Results flagged for a closer look

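Xbp1 had 1917 P-sites in frame 1 of its annotated ORF, more than the 1477 in frame 0, in the pooled P-site columns that enter no comparison between groups. The internal ORF of Xbp1 held 803 P-sites with 0 counts in every library. Both were taken up because the signal lies in data outside the comparison of PE with control, and no library-level P-sites were analysed here.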

How the results depend on the processing

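The numbers of members higher (7 to 11) and lower (10 to 14) stayed within 1.5 times the reported 8 and 13 under each alternative except the test against a 1.2-fold change, with 1 higher and 4 lower. The excess of lower over higher calls was lost with the length trend removed, with 11 higher and 10 lower. DESeq2 called 1724 ORFs higher and 1721 lower of all ORFs, where edgeR called 2696 and 2690, and 8 other ER genes lower, where edgeR called 16. Of 451 values of single members under alternatives, 393 kept direction and side of the threshold, 21 lost a call, 5 gained one and 32 changed sign, of which 1, Uggt1 with the length trend removed (0.041), was of a called member. The other sign changes were of members that did not pass. With library totals alone these were Atf6 (-0.0039), Xbp1 (-0.038), Dnajb9 (-0.011), Dnajc3 (-0.0015), Dnajc10 (-0.00094), Pdia5 (-0.031) and Erp44 (-0.041). With the length trend removed they were Ern1 (0.086), Eif2ak3 (0.072), Dnajb9 (-0.021), Manf (-0.00028) and Syvn1 (0.014). Leaving out 1 library in turn gave log2 fold changes of -0.13 to 0.068 for Ern1, -0.049 to 0.12 for Atf6, -0.021 to 0.026 for Xbp1, -0.017 to 0.081 for Dnajb9, -0.14 to 0.15 for Creld2, -0.083 to 0.094 for Pdia5, -0.23 to 0.10 for Ero1b, -0.018 to 0.014 for Erp44, -0.053 to 0.28 for Edem2, -0.010 to 0.29 for Derl2 and -0.0040 to 0.26 for Ssr1. In these fits the lone library of a group was assumed to vary like those of the other group. The cause of these changes was not tested.

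With the replicate number as a block, 8 members were higher and 13 lower, of all ORFs 2726 were higher and 2721 lower, of other ER genes 30 and 16, and no call of a member changed, while Creld2 changed sign (4.3e-04). The numbers do not pair the libraries: deviations of same-numbered libraries from their group means correlated at 0.0131 across 8282 ORFs. Members of few counts, or of few counts per P-site, are limited by depth.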
